A study of Mus musculus with 16 samples.

Results

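The Rab genes, which encode small GTPases that direct vesicle traffic, were examined in mouse hippocampus. Members were the genes whose annotated symbol starts with Rab and a digit and does not contain ip, gap or if, so that interacting proteins and GTPase activating proteins were left out. The array annotation held 61 such symbols on 116 probes. Each gene was represented by the probe with the highest mean, and 53 genes had a detection p-value under 0.05 on at least 3 of the 16 arrays. These 53 are set beside all 12007 genes that were tested with 1 probe each. The other 8 symbols were Rab17, Rab19, Rab20, Rab25, Rab27b, Rab2b, Rab30 and Rab44, which were detected on 0 to 2 arrays. The rule also took in 2 genes that are not GTPases by annotation. Rab26os is a noncoding transcript named for the opposite strand of Rab26, and Rab3il1 encodes an exchange factor for Rab3 proteins.

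RNA came from the hippocampus of male C57BL/6J mice and was hybridised to Illumina bead arrays. The groups were 5 arrays of mice aged 12 months given THC, 5 arrays of vehicle mice aged 12 months, 3 arrays of THC mice aged 2 months and 3 arrays of vehicle mice aged 2 months. THC is Δ9-tetrahydrocannabinol, the compound that gives cannabis its psychoactive effect. An osmotic minipump implanted subcutaneously delivered a daily 3 mg of it per kg over 28 days, and vehicle mice received ethanol, cremophor and saline. All mice then had a maze test in water and were killed some days after it, so that no group was sampled while the drug was running.

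A Rab protein is switched on by an exchange factor that loads GTP and off by a GTPase activating protein. In its active form it sits on a membrane and recruits effectors such as motors and tethers, and each Rab marks its own set of compartments. In hippocampal neurons Rab3 and Rab27 proteins sit on vesicles that are ready for release, and Rab4, Rab5 and Rab11 proteins carry receptors, among them glutamate receptors, in and out of the postsynaptic membrane.

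Levels are log2 intensities after background correction and quantile normalization, and a difference of 1 is a doubling. Probes differ in brightness, so levels were compared between groups for 1 gene and not between genes. The share of probes detected on an array ran between 41.1% and 45.9%. Of the tested hippocampal markers on the array 9 of 11 were detected, and the probes of Calb1 and Neurod6 were not. Choroid plexus markers, all 15 detected, had means of 7.76 and 8.07 on THC replicates 1 and 5 at 12 months and of 8.74 on vehicle replicate 2 at 2 months, against 5.39 to 6.93 on the other arrays. The same 3 arrays had the highest striatum means, at 7.74, 7.26 and 7.37. Meninges markers had means of 6.71 to 7.43 in THC mice, against 7.38 to 8.14 in vehicle mice at 12 months, and of 6.66 to 7.56 in THC mice, against 6.66 to 7.27 in vehicle mice at 2 months. Blood markers ran from 9.27 to 9.93 in THC mice, against 9.61 to 10.62 in vehicle mice at 12 months, and from 8.94 to 9.51 in THC mice, against 8.69 to 9.64 in vehicle mice at 2 months. Thalamus markers were highest on THC replicate 1 at 2 months, at 9.04. The part of these lists in the results was not tested. By the number in their array codes the arrays lay on 4 slides, and the groups were not spread evenly over them. Slide 3 held no vehicle array, with 3 of the 5 THC arrays of 12 months and 1 of 2 months. Slide 2 held no THC array of 12 months, and slide 1 none of 2 months. The tissue is a mixture of cells, so fewer cells of a type and less RNA per cell cannot be told apart. Replicates are separate arrays, and the labels do not say how mice correspond to them, so p-values measure only the spread between these arrays.

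The promoters of 4 members that the comparisons below turn on are shown first. Rab3b was past the threshold in 1 of the settings, Rab12 had the smallest p for THC at 2 months, Rab10 had the largest difference, and Rab26os lies beside Rab26 and went the opposite way. The bases before the annotated start come from RefSeq on build GRCm38.p6 and are written 5′ to 3′ on the gene's strand. The windows are chr4:108878820-108879069 (plus strand) for Rab3b, chr17:66519751-66519920 (minus strand) for Rab12, chr12:3309970-3310219 (minus strand) for Rab10 and chr17:24528001-24528250 (plus strand) for Rab26os. Capitals mark the TATA box TATAAA, the GC box GGGCGG and the CCAAT box CCAAT on either strand.
Rab3b: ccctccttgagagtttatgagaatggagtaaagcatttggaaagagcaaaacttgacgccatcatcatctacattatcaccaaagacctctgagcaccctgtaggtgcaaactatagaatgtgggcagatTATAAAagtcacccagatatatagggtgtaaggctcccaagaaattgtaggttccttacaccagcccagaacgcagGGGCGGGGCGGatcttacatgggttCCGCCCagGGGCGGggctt
Rab12: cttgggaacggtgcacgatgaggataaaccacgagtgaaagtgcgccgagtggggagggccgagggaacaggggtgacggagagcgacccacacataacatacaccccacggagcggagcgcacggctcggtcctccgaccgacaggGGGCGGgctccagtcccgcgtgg
Rab10: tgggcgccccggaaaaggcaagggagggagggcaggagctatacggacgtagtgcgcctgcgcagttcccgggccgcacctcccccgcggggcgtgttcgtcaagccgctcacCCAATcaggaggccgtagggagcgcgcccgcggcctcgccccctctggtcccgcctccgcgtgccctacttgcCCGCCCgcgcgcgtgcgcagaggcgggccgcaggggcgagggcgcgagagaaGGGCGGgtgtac
Rab26os: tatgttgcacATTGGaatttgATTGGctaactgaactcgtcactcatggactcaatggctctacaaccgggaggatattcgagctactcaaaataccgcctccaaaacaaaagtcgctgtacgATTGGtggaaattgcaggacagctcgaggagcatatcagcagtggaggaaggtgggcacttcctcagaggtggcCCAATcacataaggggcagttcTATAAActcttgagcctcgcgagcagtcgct
Rab3b held 1 TATA box and 4 GC boxes, a pair of which overlap, with 6 CpG dinucleotides. Rab12 held 1 GC box and 18 CpG in 170 bases, where the nearest 80 lie inside the annotated gene and are left out, and Rab10 held 2 GC boxes, 1 CCAAT box and 34 CpG. Rab26os held 1 TATA box, 4 CCAAT boxes and no GC box, with 10 CpG. Among the 45 members with a window of 250 bases, 77.8% had a GC box, 53.3% a CCAAT box and 11.1% a TATA box. The shares were 62.2%, 40.2% and 8.64% of the 9668 tested genes with a window, and 35.4%, 37.5% and 14.3% of all 27025 genes in the table. A gene with several windows was counted if any of them held the box. Per window the shares were 67.2%, 39.3% and 8.2% for the members, beside 55.2%, 34.6% and 7.06% for the tested genes. A match is a description of the letters and not a binding site.

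No Rab gene passed the threshold in any of the 5 comparisons or in the test of all 4 groups (limma, Benjamini-Hochberg adjusted p under 0.05 over 22625 probes). In each of the 5 comparisons 0 of 53 Rab genes were called, where 0% of all probes were called. In the test of any difference among the groups 0 of 53 were called, where 0.00442% of all probes were called, and 2 had an unadjusted p under 0.05, Rab12 and Rab37, where 6.01% of all genes did. The 95% intervals of the fit without a slide term give the precision of these differences. For THC at 12 months the interval lay within 1 log2 unit of 0 for 52 of 53 genes and within 0.5 for 39. For THC at 2 months, with 3 arrays a group, the counts were 49 and 17. The genes whose interval passed 1 at 2 months were Rab10, Rab3c, Rab43 and Rab9. With the slide as a block the counts were 51 and 32 at 12 months, where Rab3b and Rab38 passed 1, and 53 and 25 at 2 months. The block estimate of Rab3b at 12 months, −0.84, lay outside its interval without the slide, −0.82 to 0.04.

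**Figure D1:**
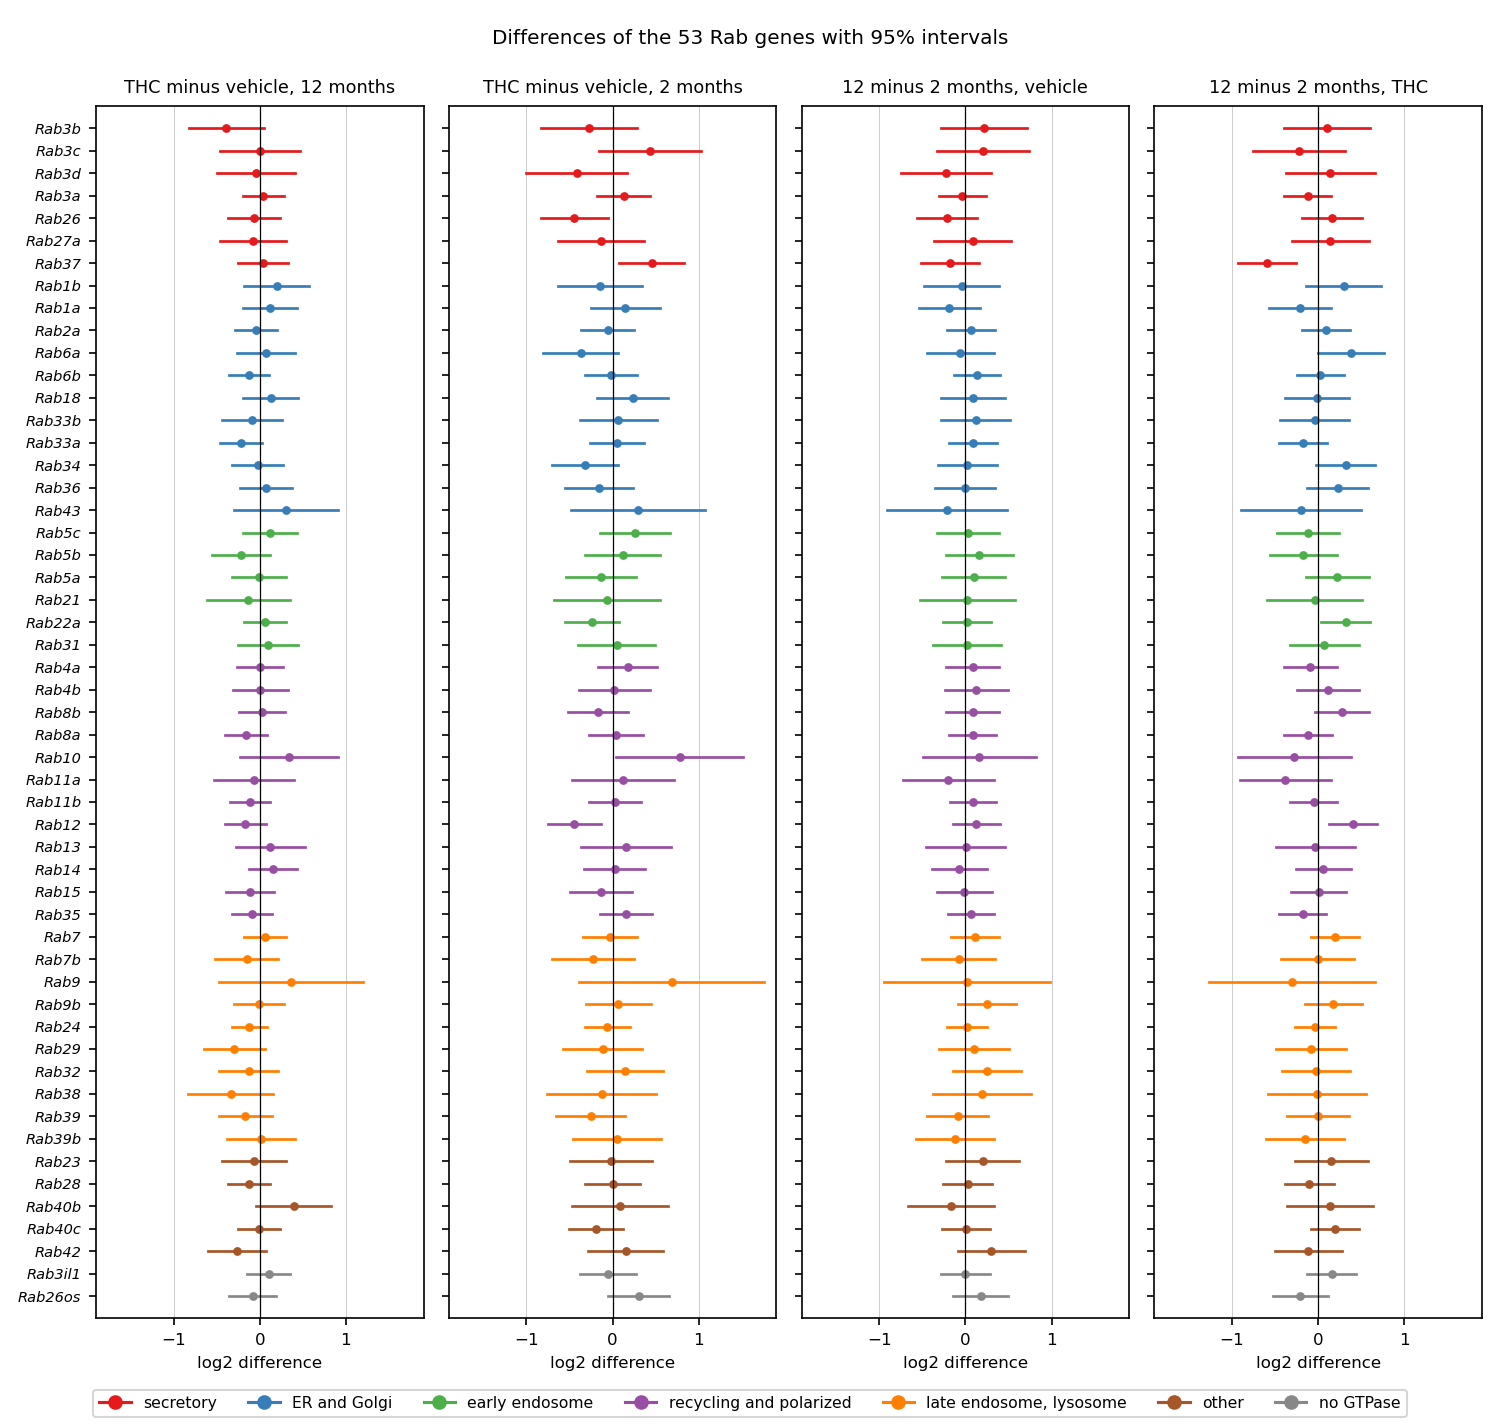
Log2 differences (x axis) of the 53 Rab genes (rows, coloured by role) in 4 comparisons, with 95% intervals from limma as lines. For THC at 2 months the intervals of 4 genes, Rab12, Rab37, Rab26 and Rab10, leave out 0, and for THC at 12 months none does.

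THC against vehicle at 12 months asked what the drug left behind in older mice. The Rab genes lay close to 0 as a group, with 22 higher and 31 lower after THC and a median log2 difference of −0.023, beside −0.018 over all genes, of which 45.8% were higher. None had an unadjusted p under 0.05, where 4.98% of all genes did, and in none did the arrays of the groups fail to overlap, where 0.675% of all genes did so. Among the members detected on all 16 arrays the largest differences were −0.39 ± 0.20 for Rab3b and 0.36 ± 0.39 for Rab9 (SE, 5 against 5 arrays, adjusted p = 0.916 and 0.924).

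THC against vehicle at 2 months gave larger differences with fewer arrays. The smallest p-values belonged to Rab12 and Rab26, which were lower after THC, and Rab37 and Rab10, which were higher. These 4 of 53 genes (7.55%) had an unadjusted p under 0.05, where 5.93% of all genes did. In 7 genes the 3 THC arrays did not overlap with the 3 vehicle arrays, where 11.7% of all genes did so. Rab10, Rab26os and Rab37 were the 3 on the high side (5.44% of all genes), and Rab12, Rab26, Rab39 and Rab6a were the 4 on the low side (6.3% of all genes). Over the 53 genes the median was 0.022, with 28 higher and 25 lower, beside 0.0036 over all genes. The test of whether the response to THC differed between the ages called 0 of 53 Rab genes, with 0 at an unadjusted p under 0.05, where 4.96% of all genes were.

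The comparison of 12 with 2 months showed no Rab gene with an unadjusted p under 0.05 in vehicle mice, where 4.91% of all genes did. More members were higher than lower at 12 months, 36 against 17, with a median of 0.027, beside −0.0030 over all genes, of which 49.1% were higher. This direction depended on the probe for part of the 23 members with a second detected probe, more of which turned lower than higher. Rab3b gave 0.21 with the main and −0.24 with the second probe, and Rab38 gave 0.19 and −0.12. Rab14 gave −0.07 and 0.28, and Rab1a gave −0.19 and 0.16. The groups did not overlap for 1 gene, Rab26os, where 3.05% of all genes did so and 1.59% were on the high side. In THC mice 24 members were higher and 29 lower at 12 months, with a median of −0.014, beside −0.030 over all genes. There 3 members had an unadjusted p under 0.05, Rab37, Rab12 and Rab22a, where 6.17% of all genes did. The arrays of the ages did not overlap for 4 members, where 5.49% of all genes did so. Rab12 and Rab22a were on the high side, beside 2.61% of all genes, and Rab11a and Rab37 on the low side, beside 2.88%. This comparison and that of THC at 2 months share the 3 young THC arrays.

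Among the secretory Rab genes, 0 of 7 passed in any of the 5 comparisons. Rab3a encodes the main Rab3 protein of synaptic vesicles. It averaged 12.53 ± 0.16 in THC mice and 12.49 ± 0.16 in vehicle mice at 12 months (SD, n = 5 each), a difference of 0.04 ± 0.11. At 2 months it averaged 12.66 ± 0.14 in THC mice and 12.53 ± 0.05 in vehicle mice (SD, n = 3 each), a difference of 0.13 ± 0.15. Its second probe gave larger differences, 0.45 at 12 months and 0.73 at 2 months, with adjusted p-values of 0.916 and 0.792. Rab27a, which acts with Rab3 proteins in docking vesicles, differed after THC by −0.08 ± 0.18 at 12 months and by −0.14 ± 0.24 at 2 months. Rab3d, known from secretory granules, differed by −0.05 ± 0.21 at 12 months and by −0.42 ± 0.28 at 2 months. Rab3c, another synaptic vesicle Rab, was detected on 14 of 16 arrays and differed by 0.0054 ± 0.22 at 12 months and by 0.43 ± 0.28 at 2 months. With the slide as a block Rab3c differed by −0.43 at 12 months and by 0.12 at 2 months (adjusted p = 0.370 and 0.857), and its second probe, detected on 5 arrays, gave −0.29 and 0.02 without the block. The related vesicle gene Rab27b was detected on 1 array and was not tested.

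Rab3b, a Rab3 protein of regulated secretion, was the 1 member called in any of the settings tried. At 12 months its values were 6.84, 7.54, 7.33, 7.06 and 7.03 in THC mice, against 7.80, 7.65, 7.04, 7.30 and 7.93 in vehicle mice. The groups overlapped, since vehicle replicates 3 and 4 lay among the THC arrays. The difference was −0.39 ± 0.20, or 0.765-fold (limma, adjusted p = 0.916). At 2 months the values were 6.49, 7.41 and 7.27 in THC mice, against 7.49, 7.03 and 7.47 in vehicle mice, which overlapped, with a difference of −0.27 ± 0.26. With the slide as a block the 12-month difference was −0.84 ± 0.14 (limma, adjusted p = 0.0314), in a fit that called 0.137% of all probes. Within slide 1, which held 1 THC and 2 vehicle arrays of that age, the difference was −0.89. Within slide 4, with 1 array of either group, it was −0.90.

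The Rab3b call of the block fit rests on few arrays. The THC arrays of slides 1 and 4 are replicates 1 and 5, whose choroid plexus and striatum means are given above, and their part in the result was not tested apart from a fit with the choroid plexus mean. The vehicle array of slide 4 is replicate 5, which had the highest Rab3b value of the 16 arrays, the lowest hippocampus marker mean (8.01) and the highest meninges and blood means (8.14 and 10.62), and their part was not tested. With the choroid plexus mean and the block the difference was −0.84 (adjusted p = 0.225). The call ended without THC replicate 1 (adjusted p = 0.370), THC replicate 5 (adjusted p = 0.161), vehicle replicate 1 (adjusted p = 0.0812), vehicle replicate 2 (adjusted p = 0.0821) or vehicle replicate 5 (adjusted p = 0.0895), all at 12 months. The differences in those fits ran from −0.87 to −0.80. With quantile normalization alone the block gave −0.54 (adjusted p = 0.0234). The second Rab3b probe, detected on 13 of 16 arrays, gave −0.16 without and −0.13 with the block (adjusted p = 0.902 with it). With slide 1 left out and no block the difference was −0.19.

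**Figure D2:**
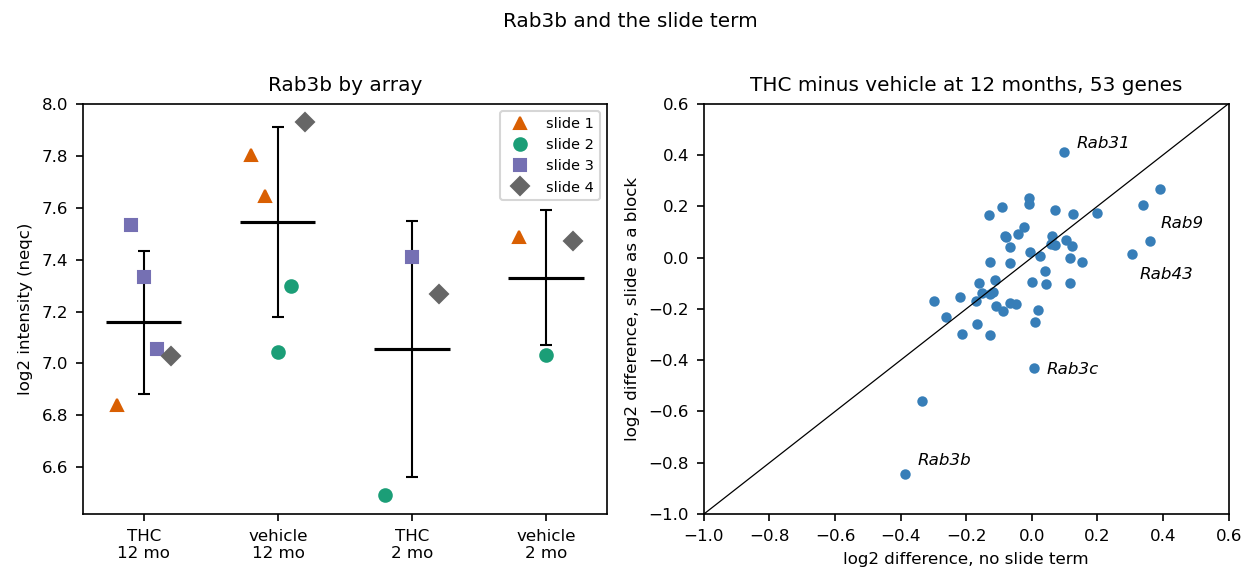
Left, Rab3b log2 intensity on each array by group, with symbols for the slide, bars for the mean and whiskers for the SD. Right, log2 difference of THC minus vehicle at 12 months for the 53 genes without (x axis) and with (y axis) the slide as a block; points on the line are the same in both, and Rab3b moves to −0.84.

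Rab26 and Rab26os, on chromosome 17, went opposite ways after THC at 2 months. Rab26, which acts on secretory granules and in the clearing of synaptic vesicles, had 10.33, 10.74 and 10.67 in THC mice, against 10.85, 10.82 and 11.41 in vehicle mice. The groups did not overlap, by a narrow margin, and vehicle replicate 3 lay far above the rest. The difference was −0.45 ± 0.18, or 0.734-fold (adjusted p = 0.781), and it was −0.26 without that vehicle array. The second Rab26 probe gave −0.64 (adjusted p = 0.781). Within slides 2 and 4, each with 1 array of either group, the differences were −0.49 and −0.73. At 12 months Rab26 differed by −0.07 ± 0.14, with values of 10.82, 10.77, 10.59, 10.69 and 10.85 in THC mice, against 10.98, 11.00, 10.78, 10.42 and 10.86 in vehicle mice. The groups overlapped there. Between the ages it differed by −0.22 ± 0.16 in vehicle mice.

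Rab26os had 8.97, 8.89 and 9.36 in THC mice, against 8.81, 8.70 and 8.79 in vehicle mice at 2 months. These did not overlap, with a difference of 0.30 ± 0.17 (adjusted p = 0.781) and within-slide differences of 0.27 and 0.56. At 12 months Rab26os had 9.22, 8.77, 8.82, 8.56 and 8.94 in THC mice, against 9.13, 8.99, 8.84, 8.90 and 8.87 in vehicle mice. Those overlapped, with a difference of −0.08 ± 0.13. The sign at 12 months depended on the slide term. A slide block gave Rab26os 0.085 at 12 months and 0.45 at 2 months (limma, adjusted p = 0.859 and 0.362). In vehicle mice all 5 arrays at 12 months lay above all 3 at 2 months, with a difference of 0.18 ± 0.15. The difference between the responses to THC at both ages was −0.39 ± 0.21 for Rab26os and 0.38 ± 0.23 for Rab26 (adjusted p = 0.961 and 0.969).

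Rab37, a Rab of secretory granules, was close to the background. It was detected on 3 of 3 THC arrays and 1 of 3 vehicle arrays at 2 months, and on 1 of 5 arrays in each group at 12 months. Of its 6 detections 3 lay in the young THC group, where it was brightest, and those in the other groups just met the filter of 3 arrays. Its values at 2 months were 5.00, 5.18 and 5.47 in THC mice, against 4.72, 4.70 and 4.87 in vehicle mice. At 12 months they were 4.30, 4.88, 4.70, 4.67 and 4.57 in THC mice, against 4.30, 4.38, 4.77, 4.79 and 4.68 in vehicle mice. The 3 young THC arrays lay above the other 13 arrays. The difference after THC at 2 months was 0.45 ± 0.18 (adjusted p = 0.781), and that of 12 against 2 months in THC mice was −0.59 ± 0.16 (adjusted p = 0.359). These sizes are uncertain, since most arrays of the other groups were not above background. With quantile normalization alone they were 0.14 and −0.19. With the slide as a block they were 0.32 and −0.57.

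**Figure D3:**
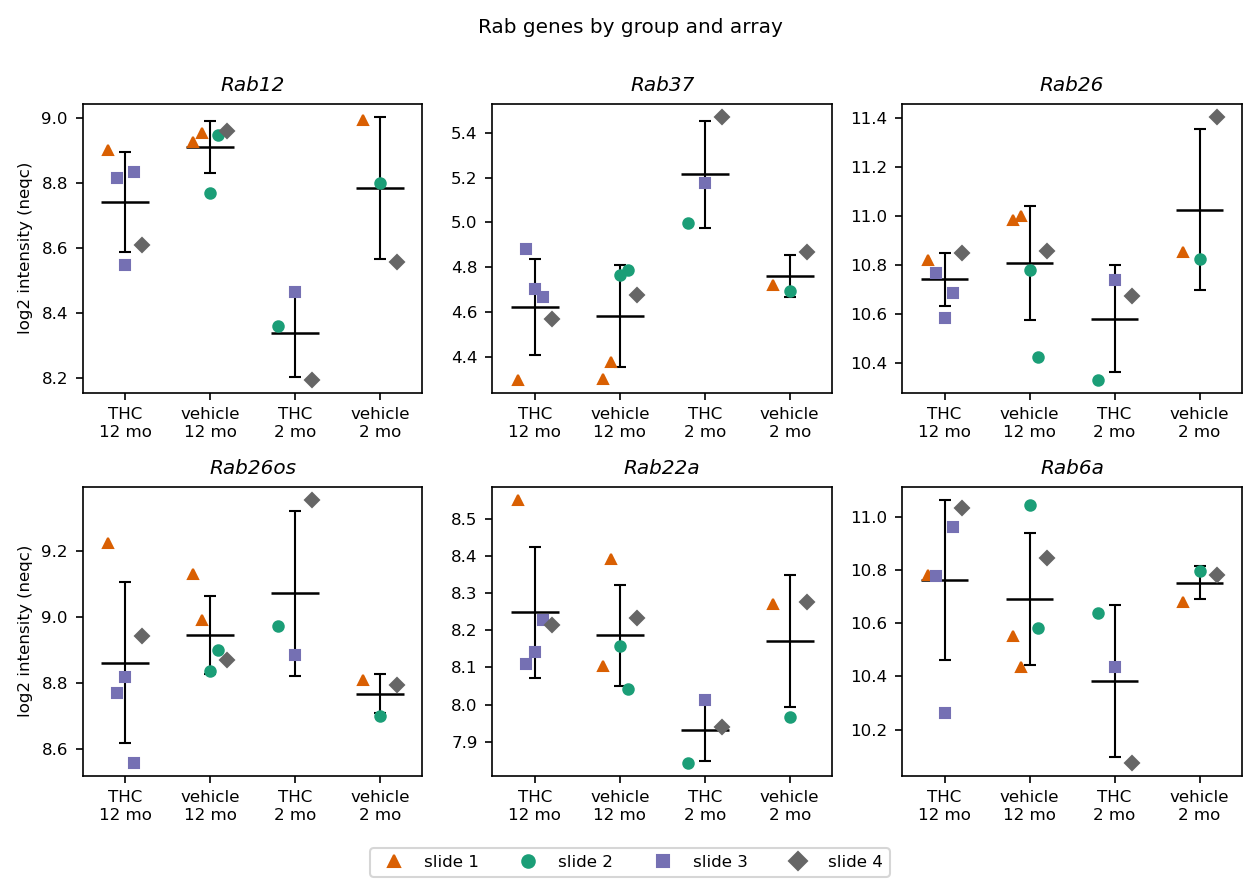
Log2 intensity of 6 Rab genes on each of the 16 arrays by group, with symbols for the slide, bars for the group mean and whiskers for the SD. The 3 young THC arrays lie above the 3 young vehicle arrays for Rab37 and Rab26os and below them for Rab12, Rab26 and Rab6a, and Rab22a overlaps.

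Of the 11 Rab genes of the endoplasmic reticulum and Golgi, 0 passed in any of the 5 comparisons, and their median after THC was 0.071 at 12 months and −0.020 at 2 months. Rab1a, which carries cargo between these compartments, differed after THC by 0.12 ± 0.15 at 12 months and by 0.15 ± 0.19 at 2 months. Rab2a, which acts on the same route, averaged 13.20 ± 0.12 in THC mice and 13.24 ± 0.17 in vehicle mice at 12 months (SD, n = 5 each), and differed by −0.04 ± 0.11 and by −0.06 ± 0.15 at those ages. Rab6b, the neuronal form of Rab6, differed by −0.13 ± 0.11 at 12 months and by −0.02 ± 0.14 at 2 months, or by −0.30 at 12 months with the slide as a block (adjusted p = 0.321). Rab6a, which returns membrane to and through the Golgi, had 10.64, 10.43 and 10.08 in THC mice, against 10.68, 10.80 and 10.78 in vehicle mice at 2 months. The groups did not overlap, and the THC arrays were the more spread. The difference was −0.37 ± 0.21 (adjusted p = 0.781), within slides −0.16 and −0.70, and −0.16 with the second probe. The third probe, detected on all 16 arrays, went the opposite way at 0.15, and the dimmest gave −0.17.

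At 12 months Rab6a had 10.78, 10.78, 10.26, 10.96 and 11.03 in THC mice, against 10.55, 10.44, 11.04, 10.58 and 10.84 in vehicle mice. The groups overlapped over most of their range, with a difference of 0.07 ± 0.16. Between the ages in THC mice Rab6a differed by 0.38 ± 0.18 (adjusted p = 0.691), and its second probe went the opposite way at −0.11. The third probe also went the opposite way, at −0.31, and the dimmest gave 0.15. Rab33a, a Golgi Rab that also serves growing axons, was among the 4 members with the smallest p for THC at 12 months. It had 9.17, 9.25, 9.26, 9.20 and 9.04 in THC mice, against 9.43, 9.67, 9.23, 9.46 and 9.19 in vehicle mice. Vehicle replicates 3 and 5 lay within the range of the THC arrays, and the difference was −0.21 ± 0.12 (adjusted p = 0.916). At 2 months Rab33a differed by 0.05 ± 0.15, with 9.17, 9.47 and 9.44 in THC mice, against 9.15, 9.42 and 9.34 in vehicle mice.

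Of the 6 early endosome genes 0 passed in any of the 5 comparisons. All 6 had a higher mean at 12 than at 2 months in vehicle mice, by 0.015 to 0.16, which is within their errors. Of all genes 49.1% were higher there. The direction depended on the fit and the probe. With the slide as a block Rab21 and Rab31 were lower, by −0.037 and −0.016. Rab5a, Rab5b, Rab5c and Rab22a stayed higher in that fit, by 0.017 to 0.14. Without the block the other Rab5a probes, detected on all 16 arrays, gave −0.12 and 0.12, and another Rab22a probe gave 0.038. The 3 Rab5 genes encode the Rab of endocytic vesicles and early endosomes. Rab5a averaged 10.01 ± 0.22 in THC mice and 10.02 ± 0.22 in vehicle mice at 12 months (SD, n = 5 each), and 9.78 ± 0.13 in THC mice and 9.92 ± 0.35 in vehicle mice at 2 months (SD, n = 3 each). After THC at 12 months Rab5a differed by −0.0082 ± 0.15, Rab5b by −0.22 ± 0.16 and Rab5c by 0.12 ± 0.15. At 2 months the differences were −0.13 ± 0.19 for Rab5a, 0.12 ± 0.21 for Rab5b and 0.26 ± 0.19 for Rab5c. Rab22a, which acts between early endosomes and the recycling route, had 8.55, 8.11, 8.14, 8.23 and 8.21 at 12 months in THC mice, against 7.84, 8.01 and 7.94 at 2 months. All 5 older THC arrays lay above all 3 younger ones, with a difference of 0.32 ± 0.13, or 1.25-fold (adjusted p = 0.618). Its second probe gave 0.27, and within slides 3 and 4 the differences were 0.15 and 0.28. Vehicle mice had 8.10, 8.39, 8.16, 8.04 and 8.23 at 12 months, against 8.27, 7.97 and 8.27 at 2 months, which overlapped, with a difference of 0.015 ± 0.13.

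Of the 12 recycling and polarized traffic genes 0 passed in any of the 5 comparisons. Rab4a and Rab4b, of the fast recycling route, differed after THC at 12 months by −0.0007 ± 0.13 and 0.0081 ± 0.15, and at 2 months by 0.18 ± 0.16 and 0.022 ± 0.19. Rab11b averaged 13.02 ± 0.14 in THC mice and 13.13 ± 0.12 in vehicle mice at 12 months (SD, n = 5 each), and 13.07 ± 0.06 in THC mice and 13.04 ± 0.20 in vehicle mice at 2 months (SD, n = 3 each). Rab11a and Rab11b, both of the recycling endosome, differed by −0.07 ± 0.22 and −0.11 ± 0.11 at 12 months, and by 0.12 ± 0.28 and 0.03 ± 0.14 at 2 months. Rab8a and Rab8b, which bring receptors to the plasma membrane, differed by −0.16 ± 0.11 and 0.03 ± 0.13 at 12 months, and by 0.04 ± 0.15 and −0.17 ± 0.16 at 2 months. These Rabs are known to take part in carrying glutamate receptors to and from synapses, and each difference was smaller than its 95% interval was wide to either side. Rab14, which links the Golgi and endosomes, differed by 0.15 ± 0.13 at 12 months and by 0.024 ± 0.17 at 2 months.

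Rab12, which sends receptors from recycling endosomes to lysosomes, had the smallest p of the 53 genes for THC at 2 months. Its values were 8.36, 8.46 and 8.19 in THC mice, against 8.99, 8.80 and 8.56 in vehicle mice. The groups did not overlap, and the difference was −0.45 ± 0.15, or 0.735-fold (limma, adjusted p = 0.781). It was −0.42 in the block fit, −0.44 and −0.36 for the pairs on slides 2 and 4, −0.36 with quantile normalization alone, and from −0.56 to −0.34 with 1 array left out in turn. At 12 months Rab12 had 8.90, 8.82, 8.55, 8.83 and 8.61 in THC mice, against 8.92, 8.95, 8.77, 8.95 and 8.96 in vehicle mice. Only vehicle replicate 3 lay within the range of the THC arrays, and the difference was −0.17 ± 0.11 (adjusted p = 0.916). In THC mice all 5 arrays at 12 months lay above all 3 at 2 months, by 0.40 ± 0.13 (adjusted p = 0.464), or 0.35 with the slide as a block. The difference between the responses to THC at both ages was 0.28 ± 0.18 (adjusted p = 0.972).

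Rab10, which serves polarized transport and the delivery of membrane in growing axons, had the largest difference of the set. It had 8.61, 8.71 and 8.77 in THC mice, against 7.29, 8.39 and 8.08 in vehicle mice at 2 months. The groups did not overlap, and the vehicle array at 7.29 lay on slide 1. The difference was 0.78 ± 0.35, or 1.71-fold (adjusted p = 0.781), and 0.46 without that array. A block for the slide gave 0.48, the pairs on slides 2 and 4 gave 0.22 and 0.69, and the second probe gave 0.61. At 12 months Rab10 had 7.68, 8.89, 8.54, 8.38 and 8.61 in THC mice, against 7.81, 7.26, 8.51, 8.65 and 8.17 in vehicle mice. The arrays of slide 1 were the lowest in both groups, the groups overlapped, and the difference was 0.34 ± 0.27.

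Of the 10 late endosome and lysosome genes 0 passed in any of the 5 comparisons. After THC at 12 months 7 of 10 were lower, with a median of −0.12, where 54.2% of all genes were lower, with a median of −0.018. Rab7, the main Rab of late endosomes, averaged 11.39 ± 0.08 in THC mice and 11.34 ± 0.18 in vehicle mice at 12 months (SD, n = 5 each), and 11.20 ± 0.17 in THC mice and 11.23 ± 0.16 in vehicle mice at 2 months (SD, n = 3 each). It differed by 0.058 ± 0.11 at 12 months and by −0.034 ± 0.15 at 2 months, and its second probe gave 0.12 and −0.54 (adjusted p = 0.951 and 0.781). The third Rab7 probe, detected on all 16 arrays, gave 0.056 and −0.021. Rab9, which returns receptors from late endosomes to the Golgi, differed by 0.36 ± 0.39 and by 0.68 ± 0.51 at those ages. Rab29, found at lysosomes and the Golgi, had 6.94, 6.37, 6.21, 6.23 and 6.42 in THC mice, against 6.59, 7.24, 6.60, 6.45 and 6.75 in vehicle mice at 12 months. THC replicate 1 lay among the vehicle arrays and the other THC arrays below them, and the difference was −0.30 ± 0.17 (adjusted p = 0.916). At 2 months Rab29 had 6.41, 6.40 and 6.72 in THC mice, against 6.78, 6.38 and 6.72 in vehicle mice, and differed by −0.11 ± 0.22.

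The remaining members with the smallest p for age in vehicle mice were Rab42, Rab9b and Rab32. Rab9b, a relative of Rab9, had 10.69, 10.63, 10.44, 10.51 and 10.02 in vehicle mice at 12 months, against 10.29, 10.17 and 10.15 at 2 months. Replicate 5 lay below all younger arrays and the other older arrays above them, and the difference was 0.25 ± 0.16 (adjusted p = 1.00). Rab32, of lysosome-related organelles, had 7.15, 6.33, 6.60, 6.36 and 6.45 at 12 months, against 6.47, 6.13 and 6.37 at 2 months, and differed by 0.25 ± 0.19. Rab42, a little-studied member, had 6.30, 6.45, 5.66, 5.76 and 6.27 at 12 months, against 5.98, 5.88 and 5.51 at 2 months, and differed by 0.30 ± 0.18. Both overlapped between the ages. The second probe of Rab42, detected on all 16 arrays, gave 0.033. In THC mice at 12 months Rab9b had 10.78, 10.32, 10.24, 10.34 and 10.55, against 10.28, 10.17 and 10.37 at 2 months. Rab32 had 6.49, 6.59, 6.46, 6.44 and 6.28 at 12 months in THC mice, against 6.31, 6.22 and 6.88 at 2 months. Rab42 had 6.07, 5.75, 5.61, 6.01 and 5.68 at 12 months in THC mice, against 6.01, 5.89 and 5.93 at 2 months. The ages overlapped for all 3 genes in THC mice as well. There they differed between the ages by 0.18 ± 0.16 for Rab9b, −0.022 ± 0.19 for Rab32 and −0.12 ± 0.18 for Rab42.

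Rab40b, a Rab that carries a domain of ubiquitin ligases, had the smallest p for THC at 12 months. It was detected on 4 of 5 THC arrays and 1 of 5 vehicle arrays there, so its level in vehicle mice was at the background. It had 4.49, 5.31, 5.03, 5.56 and 5.31 in THC mice, against 4.68, 4.45, 5.37, 4.68 and 4.55 in vehicle mice. THC replicate 1 lay among the low vehicle arrays and vehicle replicate 3 among the high THC arrays, and the difference was 0.39 ± 0.20 (adjusted p = 0.916), a size that is uncertain so near the background. With quantile normalization alone it was 0.12. At 2 months Rab40b had 5.05, 5.20 and 4.74 in THC mice, against 5.07, 5.09 and 4.58 in vehicle mice, which overlapped. Rab3il1, the exchange factor, was detected on 6 of 16 arrays and on 0 of 3 in young THC mice, so no size is given for it.

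Proteins that act on Rabs were read from lists of exchange factors, GTPase activating proteins, effectors and the chaperones and enzymes that attach the lipid anchor. Of 107 tested genes 0 passed in any of the 5 comparisons, and some had an unadjusted p under 0.05. These were 7 for THC at 12 months (6.54%, beside 4.98% of all genes), 11 for THC at 2 months (10.3%, beside 5.93%) and 3 for age in vehicle mice (2.8%, beside 4.91%). For age in THC mice they were 7 (6.54%, beside 6.17%), and for the difference between the responses at both ages 8 (7.48%, beside 4.96%). After THC at 12 months Micall1, an effector on recycling tubules, differed by 0.39 ± 0.11 and the exchange complex gene Hps4 by 0.52 ± 0.20. Tbc1d2b, of the activating proteins, differed by −0.53 ± 0.16 and the exchange factor gene Dennd6b by −0.35 ± 0.11 (adjusted p = 0.916 for all 4). At 2 months Ehbp1, an effector of Rab8 and Rab10, differed by 0.67 ± 0.27, Micall1 by 0.36 ± 0.14, Tbc1d9 by −0.58 ± 0.23, and Myo5b, a motor for Rab11 vesicles, by −1.24 ± 0.50 (adjusted p = 0.781 for all 4). Between the ages in vehicle mice Dennd6b differed by 0.45 ± 0.13, Dennd4a by 0.42 ± 0.16, Myo5b by −1.03 ± 0.44 and Exoc6b, of the exocyst tether, by −0.20 ± 0.11 (adjusted p = 0.865 for Dennd6b and 1.00 for the others). The comparison of the ages in vehicle mice shares the 3 young vehicle arrays with THC at 2 months, and the 5 older ones, with opposite sign, with THC at 12 months.

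More Rab genes differed between slides than between groups. With the groups in the model, 12 of 53 Rab genes (22.6%) differed between the 4 slides (limma, adjusted p under 0.05), beside 22.3% of all genes. On slide 1 all 4 arrays lay below the other 12 for Rab9, Rab10, Rab43 and Rab14, which is 7.55% of the members beside 6.79% of all genes. They lay above the others for Rab21, which acts on early endosomes with integrins, and Rab11b, which is 3.77% beside 4.39%. Rab9 had 5.80 to 6.30 on slide 1 and 7.17 to 8.06 on the others (slide adjusted p = 0.000265). Rab10 had 7.26 to 7.81 on slide 1 and 8.08 to 8.89 on the others (slide adjusted p = 0.0012), and Rab43, a Golgi Rab, had 5.87 to 6.53 and 6.81 to 7.49 (slide adjusted p = 0.00457). With the slide as a block the Rab9 difference after THC at 2 months was 0.19, against 0.68 without it, and that of Rab43 −0.061, against 0.29. The difference of Rab9 at 12 months was 0.065 with the block and 0.36 without it. At 12 months the block also gave −0.25 for Rab4b, 0.23 for Rab5a and −0.17 for Rab29, and at 2 months 0.25 for Rab5b and 0.11 for Rab5c, with adjusted p-values of 0.583 or above. In the block fit 5 members had an unadjusted p under 0.05 for THC at 12 months (9.43%, beside 13% of all genes), 6 for THC at 2 months (11.3%, beside 10.1%) and 6 for the difference between both responses (11.3%, beside 10.6%).

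**Figure D4:**
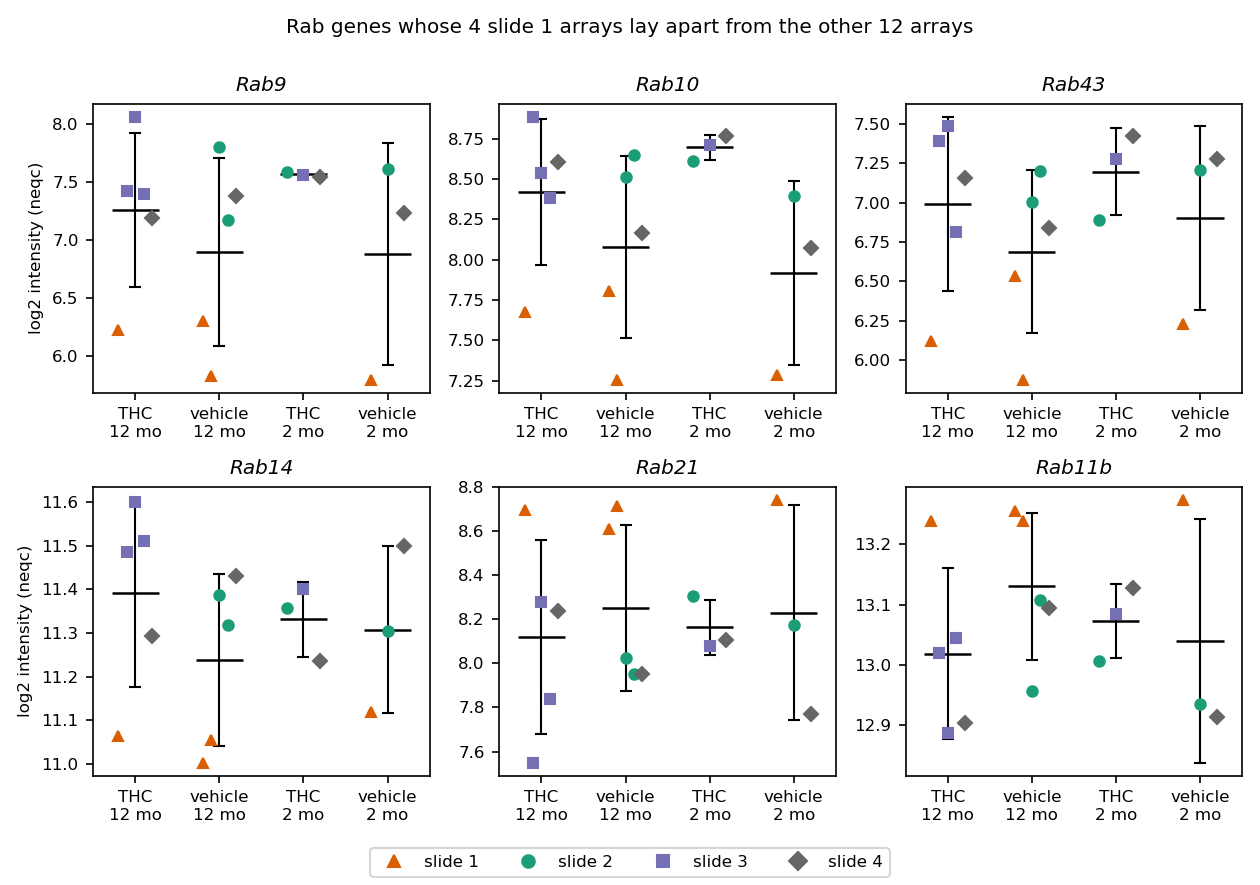
Log2 intensity of 6 Rab genes on each array by group, with symbols for the slide, bars for the group mean and whiskers for the SD. The 4 arrays of slide 1 (triangles) are the lowest for Rab9, Rab10, Rab43 and Rab14 and the highest for Rab21 and Rab11b, in each of the 3 groups that hold one.

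The spread between arrays of a group set what could be seen. The pooled SD within groups ran from 0.091 for Rab24, which takes part in autophagy, to 0.72 for Rab9, with a median of 0.23 over the 53 genes, beside 0.25 over all genes. In 30 of 53 members it was under 0.25. The range of the 4 group means had a median of 0.23 over members and was widest for Rab10, at 0.78.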

How the data were processed

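Total RNA of hippocampus was labelled with biotin, per the labels. Per the file headers, the authors deposited scanner intensities, with a detection p-value for each. By their range and spread the deposited intensities are log2 values that were not normalized between arrays. The authors had quantile normalized the log2 values of the series matrix, as its values show. The submitters' processing notes name Partek without a version. In 1 array 26 p-value cells held text and were treated as missing.

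The function neqc of limma 3.58.1 (R 4.3.3) corrected the background and normalized by quantiles, at an offset of 16. The fit was tested on simulated data. The filter kept 22625 of 45281 probes, those with a detection p under 0.05 on 3 or more arrays. They were tested in a model with 1 mean per group, two-sided, with Benjamini-Hochberg adjustment over all of them. Figures used matplotlib 3.10.9. Names came from the platform annotation, where 34807 probes matched RefSeq by Entrez ID. The slide of each array was read from the number before the letter in the array code of its label. The number of slide 1 begins with different digits from the others, whose numbers begin alike.

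The members and lists were chosen with earlier results of these data known. Members given array by array were those with the 4 lowest p-values per comparison. Group differences were given for Rab1a, Rab2a, Rab3, Rab4, Rab5, Rab6, Rab7, Rab8, Rab9, Rab10, Rab11, Rab14 and Rab27 genes. Regulators were the 2 with the smallest p in each direction for THC at either age and for age in vehicle mice. Alternatives were other normalizations, filters, probes and variance models, the slide as a block, a choroid plexus covariate and each array or slide 1 left out.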

Additional observations from a re-analysis of the deposited data

Results flagged for a closer look

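In 66 checks of the 33 named genes in the groups of 5 arrays, 4 values, on 2 arrays, stood apart from the others of their group by more than Dixon's 95% limit on the gap to the nearest array over the group's range. Chance flags about 5% of such checks.

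Rab12 was 8.77 on vehicle replicate 3 at 12 months, against 8.92 to 8.96 on the other 4 arrays. Rab22a was 8.55 on THC replicate 1 at 12 months, against 8.11 to 8.23 on the others. Rab29 was 6.94 on the same THC array, against 6.21 to 6.42. Rab40b was 5.37 on vehicle replicate 3 at 12 months, against 4.45 to 4.68. The choroid plexus marker mean was 7.76 on that THC array and 6.93 on that vehicle array, and its part in these values was not tested.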

How the results depend on the processing

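The count of called Rab genes stayed at 0 in each comparison, except that the slide as a fixed block gave 1 for THC at 12 months, Rab3b, with 31 probes called in all. The median of the Rab genes moved by less than the spread between arrays in 143 of 143 alternatives. That spread, 0.13, is wider than each median in the main setting, so a median could change sign and still count as unmoved. For age in vehicle mice the number of called probes, 0 in the main setting, was 3 on quantile normalized and on series matrix values, 2 without a filter, with the strict filter, with a fixed slide block and with a random one, 1 with a variance trend and robust variances, and 0 to 1 with 1 array left out. For age in THC mice it was 1 with quantile normalization alone, the series matrix values and no filter, and 2 with the random block. For any difference among the groups it was 3 with quantile normalization, the series matrix, no filter, and trend and robust variances, 2 with the strict filter, 10 with the fixed block, 5 with the random block, 0 without slide 1 or with the choroid plexus covariate, and 0 to 2 with 1 array left out, beside 1 in the main setting. The cause was not tested. The fits of Rab3b with the slide as a block and 1 further change were chosen after seeing the data, and 11 of 16 fits with 1 array left out kept the call. Of the single-gene differences 36 moved by more than the spread between arrays, mostly with the second probe of a gene. No paired analysis was possible because the labels give no replicate numbers and the numbers used here follow accession order. The number of arrays and signals near the background (Rab37, Rab40b, Rab7b, Rab3il1) limit the precision.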
